A study of Homo sapiens with 8 samples.

Results

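FABP1, PPARA, CPT1A, CPT2, ACADM, ACADVL, HADHA and HADHB were followed in HepG2 cells after knockdown of NAT10. They were chosen by name as genes of fatty acid binding and oxidation, with earlier results of these data known. All 8 were found among the 86369 Ensembl identifiers of the count table and among the 13840 genes tested. HepG2 is an established hepatocellular carcinoma line. The cells were transfected with small interfering RNA (siRNA) aimed at NAT10, an RNA acetyltransferase (group siNAT10), or with control siRNA that has no intended target (siCtrl), and total RNA was taken 2 days later. Each group had 4 libraries, 2 from batch 1 and 2 from batch 2, read at the 3' ends of polyadenylated RNA. Both groups were therefore transfected cells, and how many siRNAs were used and their sequences are not given in the sources used here. The labels do not say whether the libraries came from separate cultures, so the p-values measure the spread between these libraries, which may be technical.

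Long-chain fatty acids that enter a hepatocyte are held in solution by FABP1, the liver fatty acid binding protein, which is among the abundant proteins of the liver cytosol. They are joined to coenzyme A and carried into mitochondria by the carnitine shuttle, with CPT1A on the outer and CPT2 on the inner membrane. In the matrix, acyl-CoA dehydrogenases and the trifunctional protein, built from HADHA and HADHB, shorten the chain step by step to acetyl-CoA. PPARA, a nuclear receptor that binds fatty acids and pairs with RXR, is the main transcriptional activator of this pathway in liver, and FABP1 and most of the oxidation genes are known targets of it.

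Total counts ran from 9731718 to 27977110 per library. NAT10 stood at 39.2 to 77.8 CPM (counts scaled by library size) in siCtrl and at 12.2 to 22.3 CPM in siNAT10, a fitted level of 31.6% of siCtrl (edgeR quasi-likelihood test, adjusted p = 2.0e-05). Of 10 hepatocyte markers 9 were tested, and their summed level, which ALB, AFP, TF and AHSG dominated, was 17423 to 19737 CPM with siCtrl and 13013 to 15321 CPM in siNAT10. The fibroblast and endothelial lists summed to at most 1.38 and 0.796 CPM in any library, and COL1A2, COL3A1, DCN, LUM, KDR and TEK were at 0. The biliary list, almost all KRT19 and SOX9, summed to 764 to 901 CPM with siCtrl and to 663 to 820 CPM in siNAT10, and neither gene passed (-0.27 and 0.02). Of the leukocyte list PTPRC, CD3E and C1QA were at 0, and its summed level was almost all LYZ, which was at 405 to 552 CPM with siCtrl and 330 to 385 CPM in siNAT10 and was called lower (-0.42, edgeR adjusted p = 0.043). APOB, which encodes the main protein of secreted very low density lipoprotein, had only 7 counts over the 8 libraries, so a gene at or near 0 in this table is not read as unexpressed.

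FABP1 transcripts fell to 64.0% of the control level after NAT10 knockdown, and FABP1 was the one gene of the 8 that passed the test. FABP1 (ENSG00000163586; GRCh38 chromosome 2, 88122982 to 88128062, minus strand) measured 489 and 343 CPM in batch 1 controls and 649 and 506 CPM in batch 2 controls. In siNAT10 it was at 288 and 247 CPM in batch 1 and at 401 and 335 CPM in batch 2. Within each batch both siNAT10 libraries lay below both siCtrl libraries, while over both batches the groups overlapped, because the lowest control of batch 1 lay under the highest siNAT10 library of batch 2. The group values were 497 ± 125 CPM with siCtrl and 318 ± 66.1 CPM in siNAT10 (SD, n = 4 in each). The fitted change was, on the log2 scale, -0.64 (SE 0.13, edgeR quasi-likelihood test, adjusted p = 0.015), and its 95% interval ran from -0.91 to -0.37, or from 53.1% to 77.2% of siCtrl. Set against the siCtrl mean of its batch, each siNAT10 library stood at 69.3%, 59.4%, 69.4% and 58.0% (replicates 1 to 4). Between 3427 and 13848 reads stood behind each value. With each read taken as a separate molecule, counting error was at most 1.71%, and the spread between controls of one batch was far larger. No molecular identifiers are named, so the true counting error may be larger than this.

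Of the 13840 genes, 1.46% were called lower (adjusted p under 0.05) and 0.816% higher, 2.28% in either direction. FABP1 was the one called member of 8 genes, a count too small to be read against that share. FABP1 ranked 105 of the 13840 by p. The call was lost without siCtrl replicate 1 (log2 fold change -0.53, edgeR adjusted p = 0.084), without siNAT10 replicate 2 (-0.60, edgeR adjusted p = 0.081) and without the batch term (-0.65, edgeR adjusted p = 0.36), with the direction unchanged in each. Of the 9 hepatocyte markers tested, 1 passed, TF, which was lower (-0.49, edgeR adjusted p = 0.023). A negative value was found for 7 of the 9 (77.8%, beside 50.3% of all genes), with a median of -0.30, while FGB (0.37) and HNF4A (0.09) were positive. Their part in the FABP1 result was not tested. In these bulk libraries fewer hepatocyte-like cells and less RNA per cell cannot be told apart.

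The bases before the FABP1 start are shown because this is the gene that fell and because the window holds letters of the half-site that PPARA and RXR bind. The sequence is the minus strand of chr2:88128063-88128312 (GRCh38.p14, RefSeq), 250 bases that end at the start site. Capitals mark, in order, the HNF1 half-site GTTAAT, the nuclear receptor half-site AGGTCA read on the other strand, and the TATA box TATAAA.
FABP1: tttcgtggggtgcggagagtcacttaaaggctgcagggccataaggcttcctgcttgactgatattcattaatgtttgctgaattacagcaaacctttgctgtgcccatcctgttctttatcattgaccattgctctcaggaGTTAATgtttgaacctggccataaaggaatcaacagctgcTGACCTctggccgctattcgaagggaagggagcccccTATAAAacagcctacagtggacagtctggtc
The GTTAAT match began 108 bases before the start, the AGGTCA match 68 bases before it and TATAAA 31 bases before it, and a further AGGTCA began at base 12 of the transcript. RefSeq gave 10 windows of 300 bases (250 before and 50 after a start) for the 8 genes, which include alternative starts of PPARA and ACADVL. Searched on both strands, AGGTCA was in the FABP1 window alone of the 10, against 13.83% of all 35116 windows, and GTTAAT likewise in FABP1 alone, against 6.88%. For each motif 1 window of 10 is a count too small to be read against these shares. TATAAA was in the windows of FABP1 and of 1 start of ACADVL (11.53% of all windows). The exact direct repeat of 2 such half-sites with 1 base between was in none of the 10, and in 0.02% of all windows. A match so rare would be missing from nearly any 10 windows, and imperfect repeats were not searched. Its absence therefore says nothing about a site for PPARA and RXR. FABP1 and CPT1A had the lowest content of G and C, while the 2 PPARA windows had 85.7% and 86.7%. The GC box GGGCGG was in 7 of the 10 windows, those of PPARA, CPT2, ACADM, HADHA, HADHB and 1 start of ACADVL, against 44.95% of all windows. A match is only a run of letters and says nothing about a factor's presence.

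PPARA, the receptor, had a higher mean after knockdown but did not pass the test. PPARA (ENSG00000186951; chromosome 22, 46150521 to 46243755, plus strand) was at 49.9 and 48.95 CPM in siCtrl of batch 1 and at 37.9 and 47.8 CPM in siCtrl of batch 2. The siNAT10 values were 65.2 and 59.3 CPM in batch 1 and 44.1 and 61.1 CPM in batch 2. Both siNAT10 libraries of batch 1 lay above their controls, and in batch 2 replicate 3 lay between its controls. The fitted change was, on the log2 scale, 0.31 (SE 0.12), with a 95% interval of 0.07 to 0.56 before correction (edgeR quasi-likelihood test, unadjusted p = 0.016, adjusted p = 0.19), beside 15.7% of all genes with p under 0.05 before adjustment. It was 0.33 in batch 1 alone and 0.30 in batch 2 alone.

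The list of PPAR receptors, partners and coregulators, which holds PPARA itself, had 18 of 21 genes tested. Of these 1 passed (5.56%, beside 2.28% of all genes), PPARG, the PPAR best known from fat cells. Its level fell, 32.1 ± 1.81 CPM in controls against 23.8 ± 2.18 CPM after knockdown (SD, n = 4 per group), a log2 change of -0.44 (SE 0.11, edgeR quasi-likelihood test, adjusted p = 0.042). The siNAT10 libraries (21.0 to 26.0 CPM) all lay under the siCtrl libraries (29.6 to 33.8 CPM), and the groups stood apart in either direction for 5.4% of all genes tested. This call is close to the threshold: it was lost whichever of the 8 libraries was dropped (edgeR adjusted p from 0.069 to 0.18), without the batch term (0.31) and with library size alone (0.070). HNF4A, the hepatocyte receptor with the highest level in the list, had a log2 change of 0.09 (edgeR adjusted p = 0.74). The list's median, PPARA included, was 0.0094, beside -0.0024 over all genes tested, with 9 genes positive and 9 negative.

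**Figure D1:**
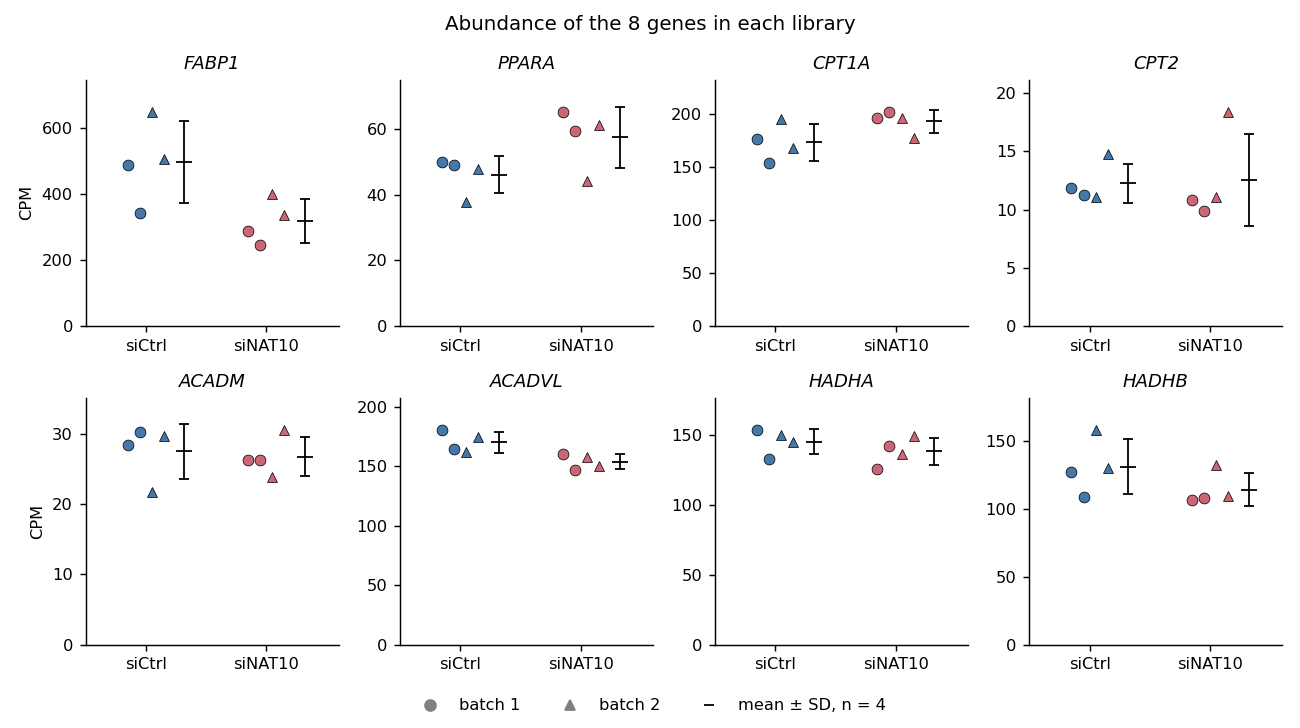
CPM of each of the 8 genes (vertical axis, from 0) in the 4 siCtrl and 4 siNAT10 libraries, with circles for batch 1, triangles for batch 2 and bars for the mean ± SD of 4 libraries. FABP1 lies lower in siNAT10 within each batch, between 247 and 401 CPM, and ACADVL is the gene whose groups do not overlap.

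The carnitine shuttle genes did not pass the test. CPT1A, the outer-membrane acyltransferase whose inhibition by malonyl-CoA sets the rate of fatty acid entry (ENSG00000110090; chromosome 11, 68754620 to 68844410, minus strand), was at 176, 154, 195 and 167 CPM in siCtrl (replicates 1 to 4) and at 196, 202, 195 and 177 CPM in siNAT10. In batch 1 both siNAT10 libraries were above both controls, and in batch 2 the groups overlapped. The log2 fold change was 0.16 (95% interval -0.06 to 0.37, edgeR adjusted p = 0.50), with 0.27 in batch 1 and 0.04 in batch 2.

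CPT2, the inner-membrane enzyme that returns the acyl group to coenzyme A (ENSG00000157184; chromosome 1, 53196792 to 53214197, plus strand), was at 11.9, 11.2, 11.1 and 14.7 CPM with siCtrl and at 10.8, 9.87, 11.1 and 18.4 CPM in siNAT10. The siNAT10 libraries lay on both sides of the controls, replicate 4 being above all others. With 141 to 327 reads a library, its counting error (5.53% to 8.42%) was the largest of the 8 genes. The log2 fold change was 0.0075 (95% interval -0.34 to 0.35, edgeR adjusted p = 0.99), and without siNAT10 replicate 4 it was -0.18 (edgeR adjusted p = 0.61). CZIB, transcribed the opposite way, overlaps the CPT2 3' end, so reads of the pair may be mixed.

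The chain-shortening dehydrogenases were likewise not called. ACADVL, the membrane-bound dehydrogenase for very long chains (ENSG00000072778; chromosome 17, 7217125 to 7225266, plus strand), was at 180, 164, 162 and 175 CPM with siCtrl and at 160, 147, 158 and 150 CPM in siNAT10. Every siNAT10 library was below every siCtrl library, which held in either direction for 5.4% of all genes tested. The difference was small, a log2 change of -0.15 (95% interval -0.35 to 0.05, edgeR adjusted p = 0.49). Within batches, FABP1 and ACADVL were the 2 of 8 genes with both siNAT10 libraries of each batch below both controls, where 7.9% of all genes tested lay so.

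ACADM, the medium-chain dehydrogenase that is deficient in the commonest inherited defect of this pathway (ENSG00000117054; chromosome 1, 75724431 to 75787575, plus strand), was at 28.4, 30.2, 21.7 and 29.7 CPM in siCtrl. It was at 26.2, 26.3, 23.8 and 30.5 CPM in siNAT10, so that both siNAT10 libraries of batch 1 lay below their controls while the groups overlapped in batch 2 and over all 8 libraries. The log2 fold change was -0.04 (95% interval -0.31 to 0.23, edgeR adjusted p = 0.92), with -0.15 in batch 1 and 0.09 in batch 2. RABGGTB and SNORD45C overlap the last 1000 bases of the ACADM locus on the same strand in GENCODE 44, so its count is uncertain.

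HADHA and HADHB encode the 2 chains of the mitochondrial trifunctional protein, which carries out the last steps of each cycle on long chains. HADHA (ENSG00000084754; chromosome 2, 26190635 to 26244672, minus strand) was at 153, 133, 149.97 and 145 CPM with siCtrl and at 126, 142, 137 and 149 CPM in siNAT10. HADHB (ENSG00000138029; chromosome 2, 26243170 to 26290465, plus strand) was at 127, 109, 158 and 130.2 CPM with siCtrl and at 106, 108, 132 and 109 CPM in siNAT10. The groups overlapped for both genes. The log2 fold change was -0.07 for HADHA (95% interval -0.28 to 0.13, edgeR adjusted p = 0.78) and -0.19 for HADHB (95% interval -0.42 to 0.03, edgeR adjusted p = 0.41).

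The genes lie head to head, with RefSeq starts 307 bases apart, and their upstream sequences are shown because they are largely one sequence read in both directions. HADHA is the minus strand of chr2:26244633-26244882 and HADHB the plus strand of chr2:26244689-26244938 (GRCh38.p14, RefSeq). Capitals mark the 194 bases that both windows hold.
HADHA: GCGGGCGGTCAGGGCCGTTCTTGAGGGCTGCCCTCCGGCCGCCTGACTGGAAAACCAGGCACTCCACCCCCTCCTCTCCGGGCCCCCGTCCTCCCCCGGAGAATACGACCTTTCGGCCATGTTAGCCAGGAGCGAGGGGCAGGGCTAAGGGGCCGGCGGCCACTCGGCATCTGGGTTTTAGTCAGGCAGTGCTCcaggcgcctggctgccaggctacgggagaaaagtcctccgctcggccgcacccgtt
HADHB: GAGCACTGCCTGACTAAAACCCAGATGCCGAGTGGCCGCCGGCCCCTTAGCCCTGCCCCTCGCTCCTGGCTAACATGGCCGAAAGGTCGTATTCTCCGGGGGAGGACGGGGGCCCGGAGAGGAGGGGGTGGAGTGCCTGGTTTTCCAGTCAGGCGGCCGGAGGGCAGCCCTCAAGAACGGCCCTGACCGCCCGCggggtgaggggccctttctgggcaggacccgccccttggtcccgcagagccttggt
The capital stretch of one is the reverse complement of the other, as a comparison of the letters showed. Within this arrangement the ratio of the chains could be followed in each library without any scaling between libraries. The log2 ratio of HADHA to HADHB was 0.27, 0.29, -0.07 and 0.16 in siCtrl and 0.24, 0.39, 0.04 and 0.45 in siNAT10 (replicates 1 to 4). The ratio varied more between libraries than between groups: the means were 0.16 ± 0.17 and 0.28 ± 0.18 (SD, n = 4 in each), a difference of 0.12 (exact two-sided permutation test, p = 0.37). The log2 ratio of CPT1A to CPT2 was 3.82 ± 0.26 in siCtrl and 3.99 ± 0.49 in siNAT10, a difference of 0.16 (exact two-sided permutation test, p = 0.54). It differed by 0.43 in batch 1 and by -0.11 in batch 2. Both p-values were 0.54 after Benjamini-Hochberg adjustment over the 2 ratios, and with labels exchanged within batches both exact p-values were 0.44. The smallest p these tests can give is 0.029, or 0.056 within batches.

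**Figure D2:**
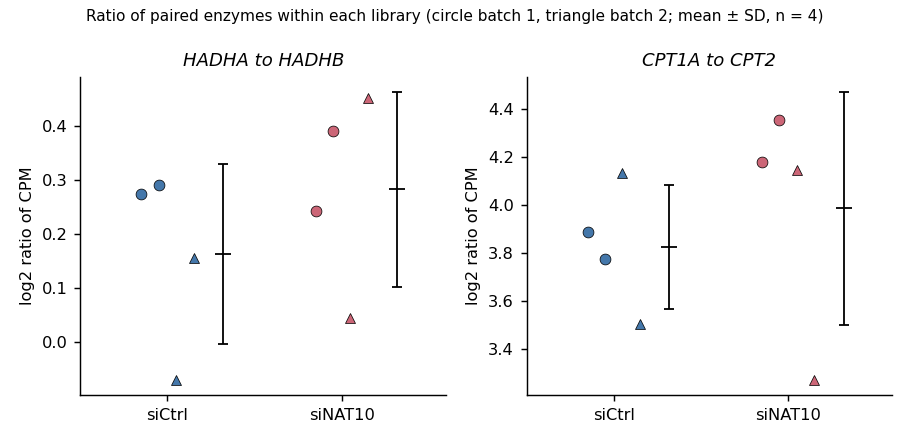
Log2 ratio of CPM of HADHA to HADHB and of CPT1A to CPT2 (vertical axes, not from 0) in each library, with circles for batch 1, triangles for batch 2 and bars for the mean ± SD of 4 libraries. The groups overlap in both panels, and the HADHA to HADHB ratio runs from -0.07 to 0.45.

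Seen side by side, the 6 oxidation enzymes had log2 fold changes from -0.19 to 0.16, with edgeR adjusted p from 0.41 to 0.99. Their 95% intervals together spanned -0.42 to 0.37, that is 74.8% to 130% of siCtrl, so a fall of the size fitted for FABP1 lay outside each of these intervals, while smaller changes cannot be told from none at this spread. Whether FABP1 differed from these genes was not tested. The siNAT10 effect did not differ detectably between batches for any of the 8 genes: the lowest unadjusted p of the batch by siRNA interaction was 0.29 (CPT1A) and each adjusted p was 0.9996. Over all genes that term was called for 0% (edgeR quasi-likelihood test, adjusted p under 0.05), and 421 genes, 3.04%, had an unadjusted p under 0.05.

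**Figure D3:**
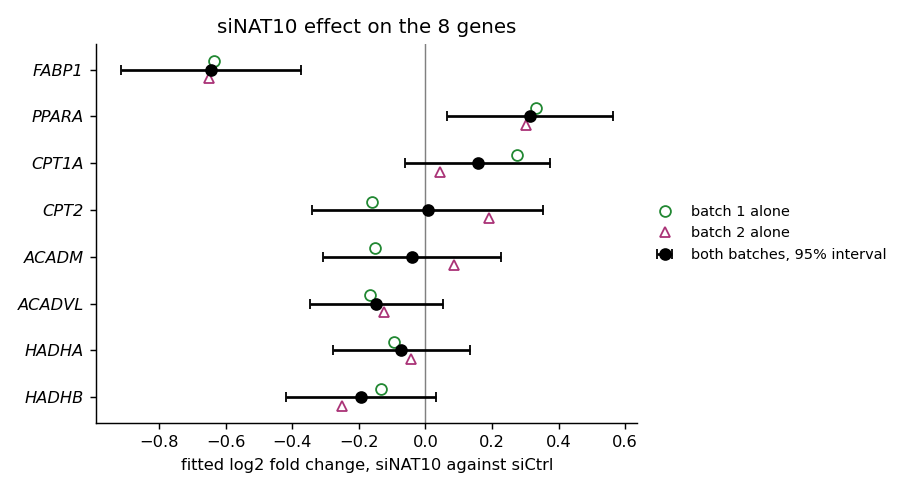
Fitted log2 change of siNAT10 against siCtrl (horizontal axis) for the 8 genes, with the 95% interval of the fit over both batches (black) and the fit of each batch alone (circle, batch 1; triangle, batch 2). The FABP1 interval (-0.91 to -0.37) lies below 0, that of PPARA (0.07 to 0.56) above 0 before correction over all genes, and the other 6 intervals cross 0.

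The 8 genes also differed in how much they varied between batches. FABP1 was higher in batch 2 by a log2 fold of 0.47 (SE 0.13, edgeR quasi-likelihood test, adjusted p = 0.013), beside the siRNA effect of -0.64. It was the one member of 8 called for the batch term, for which 25.3% of all genes were called, with 13% of all genes higher in batch 2. The batch call was lost without siCtrl replicate 2 (0.37, edgeR adjusted p = 0.054), siNAT10 replicate 2 (0.43, 0.056) or siNAT10 replicate 3 (0.42, 0.052). CPT2 (0.32, edgeR adjusted p = 0.16), HADHB (0.23, 0.12) and PPARA (-0.23, 0.17) followed without passing, and CPT1A, ACADVL and HADHA lay within 0.07 of 0. The spread between siCtrl libraries, as SD over mean, was 25.2% for FABP1, 15.5% for HADHB, 14.2% for ACADM and 5.12% for ACADVL. Counts of 3' ends are not divided by transcript length, and on that scale FABP1 was the most abundant of the 8, with a mean of 407 CPM, followed by CPT1A (183 CPM), ACADVL (162 CPM), HADHA (142 CPM), HADHB (122 CPM), PPARA (51.8 CPM), ACADM (27.1 CPM) and CPT2 (12.4 CPM). In siCtrl the neighbours CPT1A and ACADVL (173 ± 17.2 and 170 ± 8.72 CPM), and HADHA and HADHB (145 ± 8.96 and 131 ± 20.3 CPM), differed by less than the larger of the SDs of each pair (n = 4 in each).

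The 9 lists of fatty acid metabolism, which include the 8 genes above, held 129 genes, of which 98 were tested and 4 passed (4.08%, beside 2.28% of all genes): FABP1, ACSS1, PPARG and TXNIP. Without the 8 genes they held 121, of which 90 were tested and 3 passed (3.33%). With counts this low the lists are described and not set against the background. Fatty acid uptake, binding and activation had 16 of 22 genes tested, 1 higher and 1 lower. The gene that rose was ACSS1, which makes acetyl-CoA from acetate in mitochondria: it went from 157 and 160 CPM in siCtrl of batch 1 to 330 and 269 CPM in siNAT10, and from 294 and 242 CPM to 490 and 347 CPM in batch 2. Both siNAT10 libraries of each batch lay above both controls, which 6.76% of all genes did. The log2 fold change was 0.78 (SE 0.13, edgeR quasi-likelihood test, adjusted p = 0.0044), and the call held whichever single library was dropped but not without the batch term (edgeR adjusted p = 0.36). DBI, the acyl-CoA binding protein with the highest level in this list, was at 741 ± 43.4 CPM with siCtrl and 609 ± 45.0 CPM in siNAT10 (SD, n = 4 in each), a log2 change of -0.28 that did not pass (edgeR adjusted p = 0.17).

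No gene of the carnitine shuttle or of beta-oxidation passed. In the shuttle 6 of 8 genes were tested, with a median log2 change of 0.10. Among genes with at least 5 CPM the larger values belonged to SLC22A5, the carnitine importer (0.29, edgeR adjusted p = 0.54), and CRAT, carnitine acetyltransferase (-0.20, 0.44). In mitochondrial beta-oxidation 18 of 20 genes were tested, with a median of -0.06, and 17 of 18 lay within 0.3 of 0, beside 75.7% of all genes. The widest were DECR1, which removes awkward double bonds (-0.38, edgeR adjusted p = 0.17), and ACADS, the short-chain dehydrogenase (-0.30, 0.35). ETFB, a subunit of the flavoprotein that takes electrons from all these dehydrogenases, was the most abundant, at 2247 ± 355 CPM with siCtrl and 1946 ± 187 CPM in siNAT10 (SD, n = 4 in each), and did not pass (edgeR adjusted p = 0.37). Of the peroxisomal pathway 14 of 17 genes were tested, with a median of -0.07, and none passed. PHYH, which starts the breakdown of branched phytanic acid, had the largest change among genes with at least 5 CPM (-0.37, edgeR adjusted p = 0.099). It was at 25.9 ± 2.47 CPM in siNAT10 and 33.5 ± 2.99 CPM in siCtrl (SD, n = 4 in each). Every siNAT10 library of PHYH was below every control, and the groups stood apart in either direction for 5.4% of all genes tested. ACOX2, the oxidase for branched chains and bile acid precursors, had -0.34 (edgeR adjusted p = 0.31), and ACAA1, the peroxisomal thiolase, -0.13 (0.70). On the opposite strand DLEC1 overlaps the 3' end of ACAA1 and ENSG00000267984 that of ETFB, so reads of these pairs may be mixed.

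Ketone body genes could be followed only in part. Of 8 genes 4 were tested and none passed. ACAT1, the thiolase that joins 2 acetyl-CoA, was at 92.7 ± 15.5 CPM with siCtrl and 111 ± 12.9 CPM in siNAT10 (SD, n = 4 in each), a log2 change of 0.26 (edgeR adjusted p = 0.27), and SLC16A6, a ketone body exporter, had 0.30 (0.52). On the opposite strand ENSG00000285696 overlaps the 3' end of ACAT1 and ARSG that of SLC16A6, so these counts may be mixed. In all, 31 of the 129 genes were not tested for low counts. FABP5, with 21 reads in all, and ACACA, with 5, were among them.

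**Figure D4:**
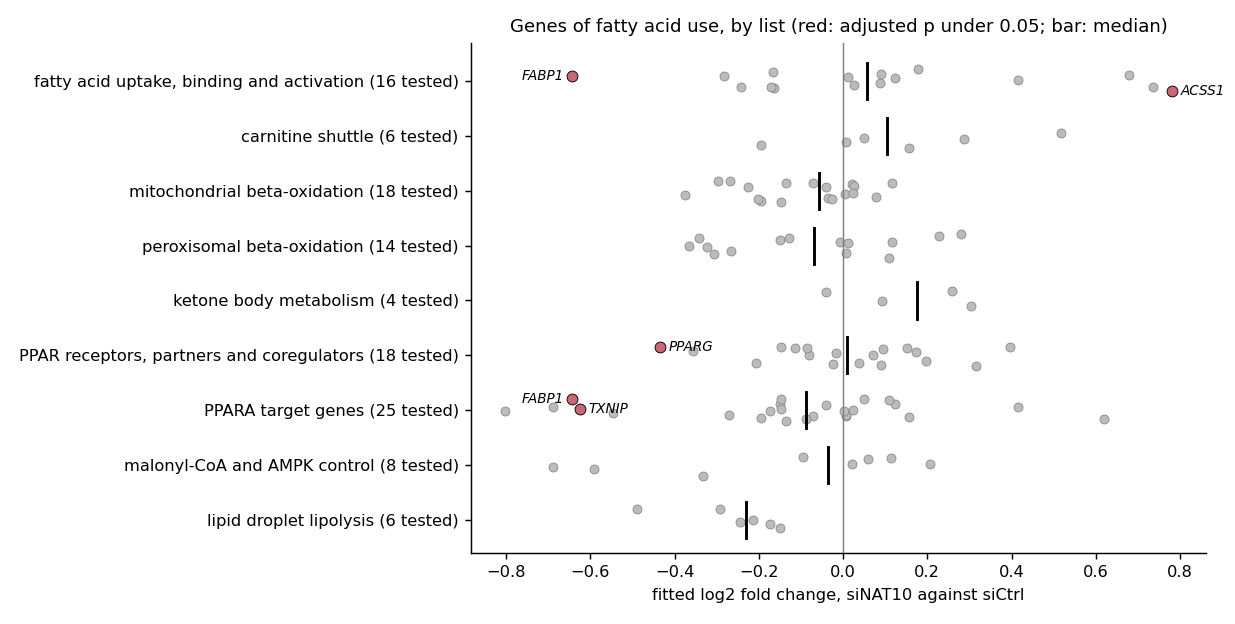
Fitted log2 change of siNAT10 against siCtrl (horizontal axis) for each tested gene of 9 lists (rows; a gene may stand in more than one), with red for an adjusted p under 0.05 and a bar for the list's median. FABP1, PPARG and TXNIP lie to the left and ACSS1 to the right, and 17 of 18 mitochondrial beta-oxidation genes lie within 0.3 of 0.

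Known target genes of PPARA did not move one way. Of 33 listed, 25 were tested, 15 with a negative (60%, beside 50.3% of all genes) and 10 with a positive value. The median was -0.09. FABP1 and TXNIP passed, both lower (2 genes, 8%, beside 2.28% of all genes), a count too small to be read against that share. TXNIP, an inhibitor of thioredoxin and of glucose uptake, went from 147, 158, 113 and 138 CPM in siCtrl to 109, 68.9, 90.3 and 91.1 CPM in siNAT10. All siNAT10 libraries lay under all controls, and for 5.4% of all genes tested the groups stood apart in either direction. The log2 fold change of TXNIP was -0.63 (SE 0.13, edgeR quasi-likelihood test, adjusted p = 0.022). The call was lost for 5 of the 8 libraries when dropped singly, namely siCtrl replicate 1, 2 or 4 or siNAT10 replicate 2 or 3 (edgeR adjusted p from 0.052 to 0.087). It was also lost without the batch term (edgeR adjusted p = 0.26). PLIN2, the lipid droplet coat protein and the most abundant gene of the list, was at 4454 ± 813 CPM with siCtrl and 4108 ± 1682 CPM in siNAT10 (SD, n = 4 in each) and did not pass (-0.17, edgeR adjusted p = 0.59). Some direct markers of PPARA activity, among them PDK4 (6 reads in all), FGF21 (1 read) and CYP4A11 (0), were too low to test. Other listed targets were tested and did not pass, such as ANGPTL4 (-0.27, edgeR adjusted p = 0.37).

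Control of the pathway by malonyl-CoA and AMP-activated kinase was described by 8 of 10 genes, none of which passed (median -0.04). The kinase subunits PRKAA2 (-0.33, edgeR adjusted p = 0.25) and PRKAA1 (0.21, 0.49) had the larger values among genes with at least 5 CPM. The list of lipid droplet lipolysis, which frees fatty acids from stored fat, had 6 of 10 members tested, and none passed. The list is not of breakdown enzymes alone, since the droplet coat proteins PLIN2 and PLIN3 are among the 6. All 6 had a negative value (beside 50.3% of all genes), with a median of -0.23. In single batches PLIN2 (0.07 in batch 1) and ABHD5 (0.16 in batch 2) were positive. For 3 of the 6, PNPLA2, LIPA and PLIN3, both siNAT10 libraries of each batch lay below both controls, as for 7.9% of all genes. The list was not tested as a set. PNPLA3 was at 7.98 ± 2.61 and 5.63 ± 1.30 CPM (-0.49, edgeR adjusted p = 0.19), and LIPA, the lysosomal lipase, at 25.9 ± 2.39 and 21.1 ± 1.70 CPM (SD, n = 4 in each group; -0.29, edgeR adjusted p = 0.19). SAMM50 overlaps the 3' end of PNPLA3 on the same strand, so that count is uncertain.

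The genes whose pattern over the 8 libraries was most like that of FABP1 were GOT1, YPEL5 and SMIM14. Likeness was the root mean square difference in log2 CPM after removal of each batch's mean, over 9312 genes with at least 5 CPM, and was 0.10, 0.11 and 0.11 for these genes, beside a median of 0.39. GOT1 is the cytosolic aspartate aminotransferase, and went from a mean of 243 to 164 CPM. YPEL5 went from 21.1 to 14.8 CPM and SMIM14, a small membrane protein, from 96.9 to 63.2 CPM. Because they were picked for following FABP1, their lower values in siNAT10 are a description. Their batch difference was not FABP1's: it was -0.04, -0.39 and 0.02 on the log2 scale, beside 0.47 for FABP1.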

How the data were processed

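The table deposited by the authors held raw counts for Ensembl genes in 8 columns, one per library, each matched through the column named in its description. Per the submitters' processing notes and the series text, the authors used Trim Galore 0.6.10, cutadapt 3.5, STAR 2.7.9a on GRCh38 and featureCounts. The annotation release, strand setting and treatment of overlapping genes are not given in the sources used here, and the kit's orientation is given both as forward and as reverse. GENCODE 44 gave symbols and loci for 61458 identifiers. It places another gene over the 3' end of further named genes, among them TF (SRPRB, same strand), LYZ and MED1 (opposite strand). Their counts may be mixed too. Columns left unused numbered 0.

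Testing used edgeR 4.0.16 (R 4.3.3): filterByExpr (minimum count 10), TMM scaling and the quasi-likelihood F test with batch and siRNA as additive terms, adjusted by Benjamini-Hochberg over all 13840 genes and called under 0.05. CPM are counts over the TMM-scaled library size. Standard errors come from the F statistic, and 95% intervals use its degrees of freedom. Totals of 9731718 to 27977110 counts cover counting error only, since no molecular identifiers are named. The script was tested on simulated data. Alternatives were other scalings and filters, DESeq2 1.42.0, no batch term, a replicate block, each batch alone, each library left out and, chosen after the depths had been seen, thinning.

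Both groups share replicate numbers. The deviations of same-numbered libraries from their group means correlated across genes at 0.39, 0.38, 0.45 and 0.36. These means were taken over both batches, and numbers 1 and 2 are batch 1 in both groups. Batch differences alone can therefore give positive correlations, which do not show a pairing by number. A fit with the number as a block was made as well.

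The members, lists and naming rule were chosen with earlier results of these data known. Named were the 8 members, NAT10, each list's called genes (or, with none, the 2 of largest change with at least 5 CPM), its most abundant gene, and the 3 genes most like FABP1.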

Additional observations from a re-analysis of the deposited data

Results flagged for a closer look

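In 20 groups of 4 values (the 8 genes and 2 ratios in each siRNA group), 2 held a single library set far apart from its 3 companions relative to their whole range. For 4 values drawn alike the cutoff used gives about 1 (1 in 20). That figure is only a rough guide here, because each group joins 2 batches and the ratios reuse genes that are also counted alone. CPT2 was at 18.4 CPM in siNAT10 replicate 4, the shallowest library, against 9.87 to 11.1 CPM in the other siNAT10 libraries. HADHB was at 132 CPM in siNAT10 replicate 3, against 106 to 109 CPM in the others, while the siCtrl libraries of the same batch were at 158 and 130.2 CPM. No cause was tested for either.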

How the results depend on the processing

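FABP1 kept its negative log2 fold change in all 18 alternatives, from -0.74 to -0.53 (both ends from dropping a single library), and was called in 13. It was not called without the batch term (-0.65), in batch 1 alone (-0.64, edgeR adjusted p 0.056) or in batch 2 alone (-0.65, 0.47), where 2 libraries stood against 2. With the replicate block it was -0.63 (edgeR adjusted p 0.0027), and the block changed no member's call. PPARA, CPT1A, ACADVL, HADHA and HADHB kept direction and side of the threshold in all 18. CPT2 turned negative with the replicate block (-0.0048), in batch 1 alone (-0.16) and after thinning (-0.11), and ran from -0.18 to 0.12 over libraries left out. ACADM was 0.086 in batch 2 alone and ran from -0.14 to 0.025. FABP1's batch difference ran from 0.37 to 0.57 over libraries left out. The CPT1A to CPT2 ratio reversed in batch 2 alone (-0.11). The HADHA to HADHB and CPT1A to CPT2 differences, 0.12 and 0.16, cannot change with the replicate block. Every library belongs to a single pair, so the block is no check of their size.

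The 315 genes called over the whole table became 15 without the batch term, 599 with DESeq2, 595 with no filter, 173 in batch 1 alone, 0 in batch 2 alone (edgeR; 946 genes at an unadjusted p under 0.05) and 75 to 286 with one library left out (75 without siNAT10 replicate 2, 104 without siCtrl replicate 1). With library size alone 138 were higher and 149 lower, in place of 113 and 202. The 4 called genes of the lists became 0 without the batch term, 2 in batch 1 alone, 0 in batch 2 alone and 1 to 3 with one library left out. Causes were not tested. Of the 8 genes CPT2 had the largest counting error, 5.53% to 8.42%, and its SD over mean in siNAT10 was 31.3%.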

Other observations

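Several genes around the pathway differed between the batches far more than between the siRNAs, and are given here as values chosen after they were seen. ANGPTL4, a fasting-induced inhibitor of lipoprotein lipase, was lower in batch 2 by a log2 fold of -1.42 (edgeR quasi-likelihood test, adjusted p 5.3e-06), the acyl-CoA synthetase ACSL3 by -0.94 (8.9e-06), the coactivator PPARGC1A by -0.85 (1.0e-04) and PLIN2 by -0.69 (0.0017). For ANGPTL4 the siNAT10 effect was 0.07 in batch 1 and -0.62 in batch 2, with an interaction p of 0.0092 before and 0.9996 after adjustment over all genes.

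Just outside the threshold, and also chosen after their values were seen, lay MED1 and VNN1. MED1, the Mediator subunit that nuclear receptors contact, had a log2 change of 0.40 (edgeR adjusted p 0.062). All its siNAT10 libraries lay above all controls, and the groups stood apart in either direction for 5.4% of all genes tested. VNN1, a pantetheinase and PPARA target, was at 1.85 ± 0.29 CPM in siNAT10 and 3.22 ± 0.52 CPM in siCtrl (SD, n = 4 in each), a log2 change of -0.80 (edgeR adjusted p 0.092).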
